A study of Mus musculus with 40 samples.

Results

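Autosomal H3K27ac was compared between Runx1-het and wild-type haematopoietic stem and progenitor cells by setting the pooled peak lists of the 2 genotypes against each other. H3K27ac is acetylation of lysine 27 of histone H3, a mark of active promoters and enhancers. The peaks of both lists on the 19 autosomes were merged where they shared at least 1 bp, which gave 48881 regions, against 71518 regions for all 6 H3K27ac lists of the study on all chromosomes. A region held by the Runx1-het list alone was called gained, one held by the wild-type list alone was called lost, and one held by both was called shared. The sex chromosomes were left out because the Runx1-het list held 5 peaks on the Y chromosome and the wild-type list held 0.

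The study mapped H3K27ac and H3K4me1, a mark of enhancers, in sorted stem and progenitor cells of mice aged 21 days and of 6 genotypes, in 40 samples. The assay was ChIPmentation, an immunoprecipitation of chromatin whose sequencing adapters are put in by the transposase Tn5 on the antibody beads. The wild-type group and the Runx1-het group had 3 H3K27ac samples each. Runx1-het is the genotype label, and its source name joins Runxf and Vav. This was taken to mean a Runx1 allele flanked by loxP sites together with a transgene under a Vav promoter, which is active in blood cells, and the alleles themselves were not given in the sources used here. Mice of the same age gave the other 4 H3K27ac lists, from Flt3-ITD (an internal tandem duplication that activates the receptor kinase FLT3), Flt3-ITD/Runx1-het, NUP98-HOXD13 (a fusion of a nucleoporin and a homeodomain factor) and Flt3-ITD/NUP98-HOXD13. Each group was deposited as 1 pooled list. Values per animal were not used here, so nothing measures the spread between animals, no p-value is given, and the 95% Wilson intervals cover counting error only.

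RUNX1 is a transcription factor that binds DNA together with its partner CBFB. It is needed for the first blood stem cells to emerge in the embryo and, in the adult, for the maturation of megakaryocytes, the precursors of platelets, and of lymphocytes. In humans, inherited loss of 1 copy causes low platelet counts and a predisposition to acute myeloid leukaemia, and the gene is recurrently mutated in that leukaemia. RUNX1 can activate or repress its targets, among them the megakaryocyte gene Pf4, through co-activators such as the acetyltransferase EP300 and co-repressors of the TLE and ETO families.

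The promoter sequences below belong to genes on which the results turn. Each is a 300-base window, 250 bases before to 50 bases after a start site, from RefSeq (build GRCm38.p6), written 5′ to 3′ on the strand of the gene. The Runx1 window is the distal promoter (chr16:92826025-92826324, minus strand), which had a peak in both lists. Capitals in it mark RUNX motifs, TGTGGT on either strand, of which it holds 2.
Runx1: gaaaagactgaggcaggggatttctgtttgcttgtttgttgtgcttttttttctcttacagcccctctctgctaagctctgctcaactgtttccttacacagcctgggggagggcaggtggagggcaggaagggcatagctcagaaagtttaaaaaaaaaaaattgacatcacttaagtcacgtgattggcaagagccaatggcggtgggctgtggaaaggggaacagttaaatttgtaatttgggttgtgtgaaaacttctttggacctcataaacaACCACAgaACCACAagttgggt
The next 2 windows belong to platelet genes. Pf4 (chr5:90772185-90772484, plus strand) encodes platelet factor 4, and its window overlapped a wild-type peak alone; capitals mark its 1 GATA motif, AGATAA on either strand. Gp9 (chr6:87777820-87778119, plus strand) encodes a subunit of the platelet receptor for von Willebrand factor; capitals mark its 1 RUNX motif, and the wild-type peak counted at its promoter lay 462 bp from a start site and did not overlap this window. Neither window held the ETS motif CCGGAAG on either strand, and the Pf4 window held no RUNX motif.
Pf4: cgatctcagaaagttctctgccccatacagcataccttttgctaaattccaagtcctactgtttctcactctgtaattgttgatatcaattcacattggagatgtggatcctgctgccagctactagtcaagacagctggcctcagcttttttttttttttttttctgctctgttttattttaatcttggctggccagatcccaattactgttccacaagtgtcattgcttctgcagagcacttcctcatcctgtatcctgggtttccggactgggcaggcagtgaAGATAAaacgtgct
Gp9: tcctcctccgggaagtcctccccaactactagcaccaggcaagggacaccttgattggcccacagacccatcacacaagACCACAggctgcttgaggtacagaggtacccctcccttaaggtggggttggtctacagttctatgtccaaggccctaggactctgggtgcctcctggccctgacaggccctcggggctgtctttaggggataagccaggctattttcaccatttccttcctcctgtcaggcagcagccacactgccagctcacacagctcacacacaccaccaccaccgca
Sgpl1 (chr10:61147635-61147934, minus strand), which encodes an enzyme that degrades sphingosine-1-phosphate, is shown as one of the strongest promoters with a wild-type peak alone. Capitals mark its 1 RUNX motif. Other genes with a wild-type promoter peak alone differed. The Eps8l1 window that overlapped its wild-type peak held 0. The windows of Gna11, Lpin1, Bicd1 and Herc3 held 0 and that of Ppm1f held 1, but these overlapped no peak of either list. The Capza2 window, which overlapped a Runx1-het peak alone, held 0. That of Mterf1a, a gene with a Runx1-het promoter peak alone, held 1 but overlapped no peak of either list.
Sgpl1: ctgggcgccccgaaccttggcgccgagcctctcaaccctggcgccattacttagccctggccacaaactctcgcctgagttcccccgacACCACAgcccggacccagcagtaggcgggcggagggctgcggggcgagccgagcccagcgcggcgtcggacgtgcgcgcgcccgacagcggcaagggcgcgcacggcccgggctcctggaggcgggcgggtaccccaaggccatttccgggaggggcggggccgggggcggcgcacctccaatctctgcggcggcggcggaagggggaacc
Ifit3 (chr19:34583279-34583578, plus strand) and Ifit3b (chr19:34607707-34608006, plus strand) are interferon-induced neighbours with closely related sequences, and they appear on opposite sides of the comparison. Capitals mark interferon-response motifs, GAAA and GAAA with any 2 bases between them on either strand, 2 in each window.
Ifit3: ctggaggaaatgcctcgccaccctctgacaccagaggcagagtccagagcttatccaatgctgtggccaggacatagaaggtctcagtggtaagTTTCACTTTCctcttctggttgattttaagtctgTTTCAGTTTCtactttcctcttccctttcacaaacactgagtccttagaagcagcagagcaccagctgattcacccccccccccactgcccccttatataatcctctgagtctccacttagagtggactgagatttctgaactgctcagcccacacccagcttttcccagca
Ifit3b: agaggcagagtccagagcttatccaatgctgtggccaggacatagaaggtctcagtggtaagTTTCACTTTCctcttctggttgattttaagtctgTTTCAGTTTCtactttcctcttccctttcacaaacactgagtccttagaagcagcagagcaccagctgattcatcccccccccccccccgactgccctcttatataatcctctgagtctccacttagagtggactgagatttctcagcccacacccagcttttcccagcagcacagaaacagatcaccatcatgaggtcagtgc

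Of the 48881 regions, 12427 were gained (25.4%), 18438 were lost (37.7%) and 18016 were shared (36.9%, 95% interval 36.4 to 37.3). Gained regions were 40.8% of the regions held by the Runx1-het list, and lost regions were 50.6% of those held by the wild-type list. Among gained and lost regions together, 40.3% (39.7 to 40.8) were gained. That balance did not hold when the lists were made alike: it was 58.6% gained with lists of equal length and 80.1% gained with peaks of a −log10 q of at least 5 in both lists. The number of losses against gains is therefore not read here as a direction of change.

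The lists differ in shape. The wild-type list had 42796 autosomal peaks with a median width of 388 bp that covered 27.6 Mb, and the Runx1-het list had 31518 peaks with a median width of 765 bp that covered 35.4 Mb. A −log10 q of at least 5 was reached by 37.5% of wild-type peaks and 66.1% of Runx1-het peaks. Of the shared regions, 27.6% held at least 2 wild-type peaks and 5.66% at least 2 Runx1-het peaks. Gained regions lay within 1000 bp of a wild-type peak in 31.6% of cases, and lost regions lay within 1000 bp of a Runx1-het peak in 27.7%. The part of depth, width and threshold in the gains and losses was not tested, and these files give no read depth.

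Gained and lost regions were weak within their own lists. The median gained region stood at percentile 28.7 of fold enrichment in the Runx1-het list and the median lost region at percentile 27 in the wild-type list, while shared regions had medians of 70.3 and 76.1. Fold enrichment here is the authors' value for a peak summit over control. At or above percentile 75 of the own list lay 101 gained regions (0.813%) and 282 lost regions (1.53%). Gained regions had a median width of 482 bp, lost regions of 248 bp and shared regions of 1425 bp.

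**Figure D1:**
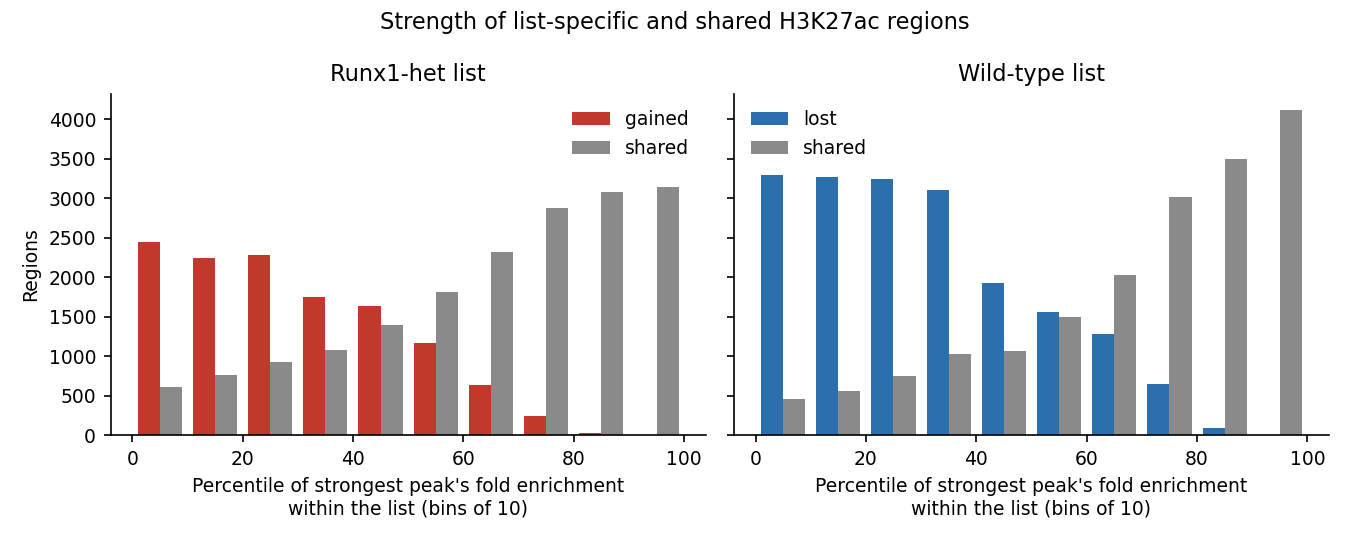
Number of regions (y axis) by the percentile of their strongest peak's fold enrichment within its own list (x axis, bins of 10), for gained and shared regions in the Runx1-het list (left) and for lost and shared regions in the wild-type list (right). Gained and lost regions, with medians of 28.7 and 27, crowd the low percentiles, and shared regions, with medians of 70.3 and 76.1, the high ones.

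Most of the changed regions lay away from promoters. A promoter, here up to 1 kb on either side of a start site, was overlapped by 10.9% (10.3 to 11.4) of gained, 8.63% (8.24 to 9.05) of lost and 40.7% (40.0 to 41.4) of shared regions. Introns held 51.0% of gained and 49.9% of lost regions, and intergenic sequence held 31.3% and 36.8%. Of the 20696 protein-coding genes on the autosomes, 7648 (37.0%) had a promoter peak in both lists, 716 (3.46%) in Runx1-het alone and 723 (3.49%) in wild type alone. Gains and losses often stood beside the same gene: 3031 genes had both, which is 61.3% of the 4947 genes with a gain and 48.7% of the 6229 with a loss. By chromosome, the gained share of the changed regions ran from 36.3% on chromosome 15 to 44.3% on chromosome 3.

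H3K4me1, measured in other libraries of the same genotypes, was present at a part of the regions where H3K27ac was gained or lost, in both genotypes. Neither H3K4me1 list had a peak at 58.6% of lost, 45.9% of gained and 26.8% of shared regions. A peak of the Runx1-het H3K4me1 list overlapped 30.2% (29.5 to 30.9) of lost regions and a peak of the wild-type H3K4me1 list 29.3% (28.7 to 30.0). At gained regions the shares were 43.4% (42.6 to 44.3) in Runx1-het and 39.9% (39.0 to 40.8) in wild type, and at shared regions 63.2% and 60.8%. Of the lost regions, 12.1% had H3K4me1 in Runx1-het alone and 11.2% in wild type alone. Of the gained regions, 14.2% had it in Runx1-het alone and 10.7% in wild type alone. Away from promoters H3K4me1 stood at 74.4% (Runx1-het) and 72.1% (wild type) of shared regions. There it stood at 45.5% and 41.7% of gained regions and at 31.5% and 30.5% of lost regions. An overlap of 1 bp counted, and wider regions have more room for one. Median widths were 248 bp (lost), 482 bp (gained) and 1425 bp (shared), and the part of width in these shares was not tested.

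The other genotypes' lists show how often a change was seen outside this pair. Of the gained regions 43.0% were in 0 of the other 4 H3K27ac lists and 15.6% in all 4. Of the lost regions 53.8% were in 0 of them and 10.1% in all 4, and of the shared regions 79.6% were in all 4. Among regions at or above percentile 75 of their list the picture was different: 86 of 101 gained regions (85.1%, 76.9 to 90.8) and 126 of 282 lost regions (44.7%, 39.0 to 50.5) were in all 4 other lists. Those 86 gained regions are thus sites missing from the wild-type list alone, and those 126 lost regions are sites missing from the Runx1-het list alone.

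**Figure D2:**
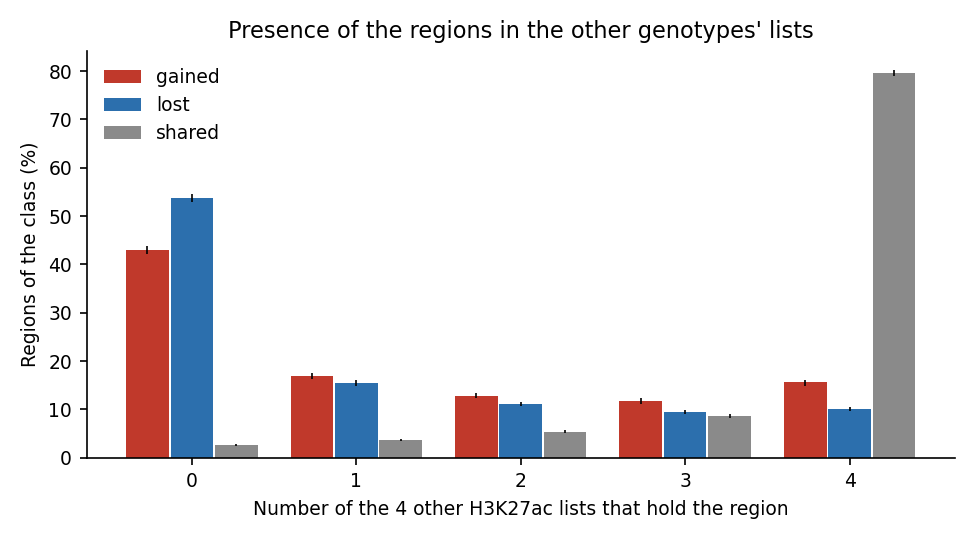
Share of gained, lost and shared regions (y axis, percent of the class, bars with 95% Wilson intervals) by how many of the other 4 H3K27ac lists hold them (x axis). The shared class peaks at all 4 lists (79.6%), the gained and lost classes at 0 (43.0% and 53.8%).

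The same allele on a Flt3-ITD background gives a second comparison with no list in common. Flt3-ITD/Runx1-het against Flt3-ITD had 48873 regions, of which 31.7% were gained and 23.3% lost. Of the 12427 regions gained in Runx1-het, 10.9% (10.3 to 11.4) were gained again there and 12.9% (12.3 to 13.5) went the opposite way. Of the 18438 lost regions, 10.4% (10.0 to 10.9) were lost again and 10.2% (9.81 to 10.7) went the opposite way. Over all 48881 regions 7.95% were gained and 9.32% lost in the Flt3-ITD pair. Lost regions at or above percentile 75 were lost again in 45 of 282 cases (16.0%, 12.1 to 20.7) and went the opposite way in 24 (8.51%, 5.79 to 12.4). Of the 101 gained regions at that level 4 were gained again and 4 went the opposite way. For gained regions the opposite direction was the more frequent, as losses were over all regions, and nothing is read from it about them. For lost regions the intervals of both directions overlapped as deposited, also among the strongest. They did not with lists of equal length, where 14% were lost again and 9.64% (9.07 to 10.2) went the opposite way, nor with a −log10 q of at least 5, where 22.1% and 6.79% (5.80 to 7.93) did. Over all regions losses were likewise the more frequent there, at 11.1% against 6.47% gained and at 12.5% against 4.11%.

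Of the named genes, Runx1 itself comes first. Its distal promoter had a peak in both lists, with a fold enrichment of 21.6 in Runx1-het, 7.23 in wild type and 12 to 19.7 in the other 4 lists, values that are not ranked between lists. The proximal promoter window (chr16:92697280-92697579) had no peak in either list. Nearest to Runx1 start sites lay 9 gained, 10 lost and 16 shared regions. The strongest gain was an intergenic region 46768 bp away (chr16:92872917-92874348, 5.26) with a wild-type peak (2.59) 47 bp beside it, and the strongest loss an intronic region 35477 bp away (chr16:92790046-92790672, 4.52). Peaks do not check the genotype, since which part of the gene the allele alters is not given.

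The paralogs and partners of RUNX1 showed the same mixture. Over the 14 genes of the RUNX family and partner list there were 28 gained, 43 lost and 57 shared regions, a gained share of 39.4% (28.9 to 51.1) against 41.2% over all genes. Runx2, which directs bone formation, had 6 gains and 10 losses, and Runx3, which acts in T cells and neurons, had 6 gains and 8 losses. The strongest lost region at Runx3, an intergenic one 22035 bp from a start site (chr4:135097861-135098617), had a fold enrichment of 7.97 in wild type and was in all 4 other lists, and a Runx1-het peak (4.55) lay 54 bp beside it. Tle1, a co-repressor, had a promoter peak in wild type alone (6.32), which all 4 other lists also held. Cbfa2t3, an ETO-family co-repressor, had a Runx1-het peak alone within 1 kb of its start sites (8.48), as in all 4 other lists, but that peak belonged to a shared region (chr8:122699303-122703203, 6.98 in wild type). Cbfb had promoter peaks in both lists (8.84 in Runx1-het and 6.98 in wild type) with 1 gain and 1 loss.

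Over all genes, 8670 of the 35837 regions with a start site within 50 kb were gained (24.2%) and 12352 were lost (34.5%), a gained share of 41.2% (40.6 to 41.9). Against this, 17 of 21 gene lists had intervals that hold the share of all genes. The 4 that did not were megakaryocyte and platelet genes and T and NK cell genes, which had more losses, and stem and multipotent progenitor genes and adhesion genes, which had more gains. The RUNX1 target list was not among them: 42 gained and 56 lost regions gave 42.9% (33.5 to 52.7). Among its members, Pf4, Nfe2 and Itga2b are also in the megakaryocyte list. The intervals count regions near the same gene as separate, which they may not be. When each list was taken without its member of the most changed regions, only 1 interval left out the share of all genes. It was that of stem and multipotent progenitor genes (54.1%, 46.3 to 61.6).

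**Figure D3:**
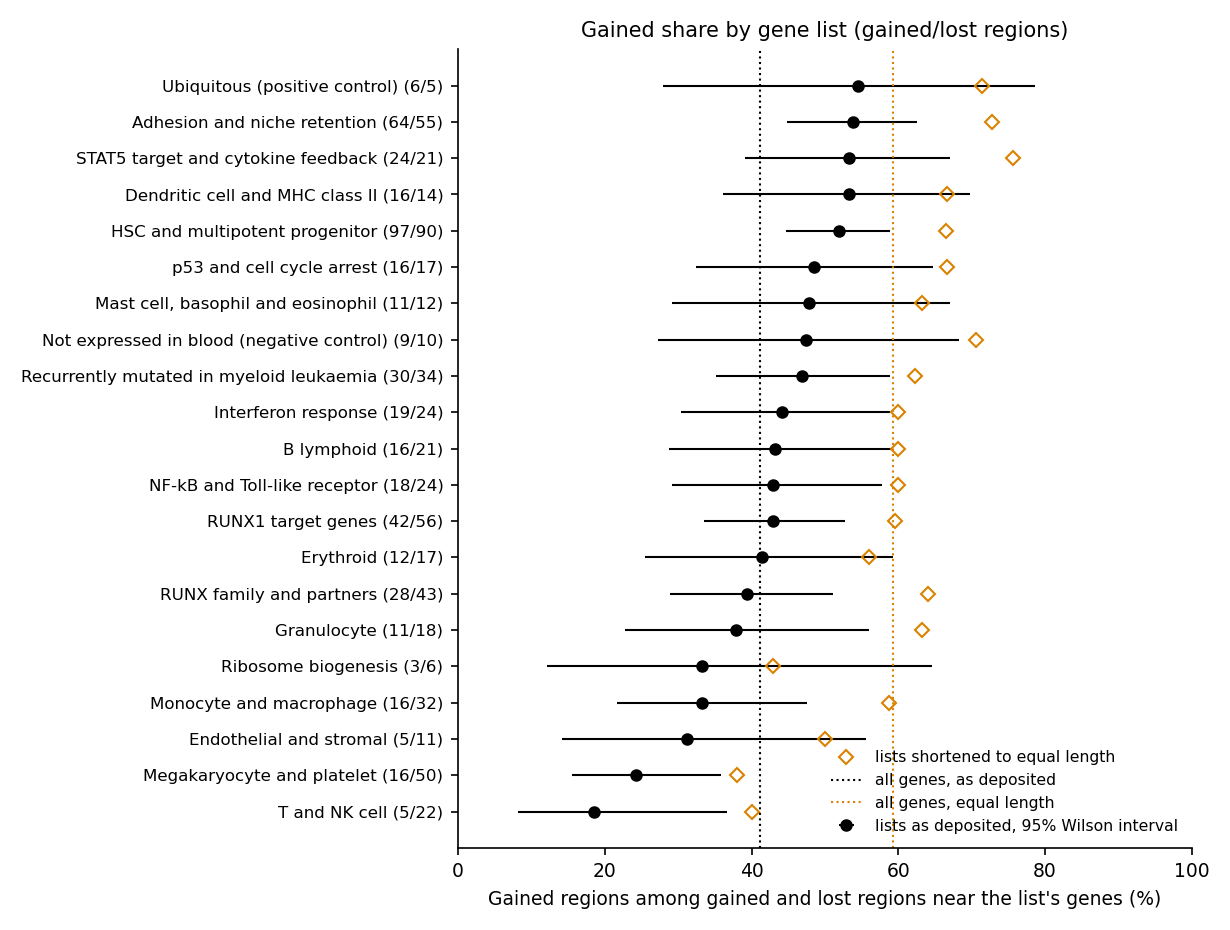
Gained regions as a percentage of gained and lost regions near the genes of each list (x axis; the counts of gained and lost regions follow the list names on the y axis). Filled points with 95% Wilson intervals are the lists as deposited, open diamonds the shortened lists of equal length, and the dotted lines all genes under each. Megakaryocyte and platelet genes lie left of the line for all genes under both, at 24.2% against 41.2% and at 38.0% against 59.3%.

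Megakaryocyte and platelet genes had 16 gained, 50 lost and 25 shared regions, a gained share of 24.2% (15.5 to 35.8). In pooled cells, fewer cells of a type and a lower mark per cell cannot be told apart. Promoter peaks stood at 9 of the 20 genes in wild type and at 4 in Runx1-het, with 5 in wild type alone (among them Pf4, Gp9, Selp and Tubb1) and 0 in Runx1-het alone. Over all 20696 genes, 3.49% had one in wild type alone and 3.46% in Runx1-het alone. The promoter region of Pf4, a chemokine stored in platelets (chr5:90771583-90772582), had 5.33 in wild type and 4.05 to 5.31 in the other 4 lists. The nearest Runx1-het peak (3.83) lay 473 bp from that region and 1326 bp from the start site. The Gp9 promoter region (chr6:87778534-87778733) had 4.47 in wild type and was in 3 of the other lists; all 4 held a peak within 1 kb of the start site (3.27 to 4.80), and the nearest Runx1-het peak was 29169 bp away.

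These promoters differed in how firmly they were missing from Runx1-het. At Pf4 and Gp9 the peak remained in wild type alone with lists of equal length. With a −log10 q of at least 5 it did so at Pf4, while Gp9 had a promoter peak in neither list. Selp (P-selectin, 3.35) and Tubb1 (the platelet tubulin, 3.35) had a promoter peak in neither list at equal length, and there Itga2b and Gp1ba, subunits of platelet adhesion receptors, had one in Runx1-het alone. With promoters of 2 kb in place of 1 kb, Pf4 and Selp had peaks in both lists, Vwf and Clec1b had one in Runx1-het alone, and 3 genes had one in wild type alone. The Flt3-ITD/Runx1-het list held the promoter peaks of Pf4 (5.31) and Gp9 (4.33), so their absence did not follow the Runx1-het genotype onto that background.

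**Figure D4:**
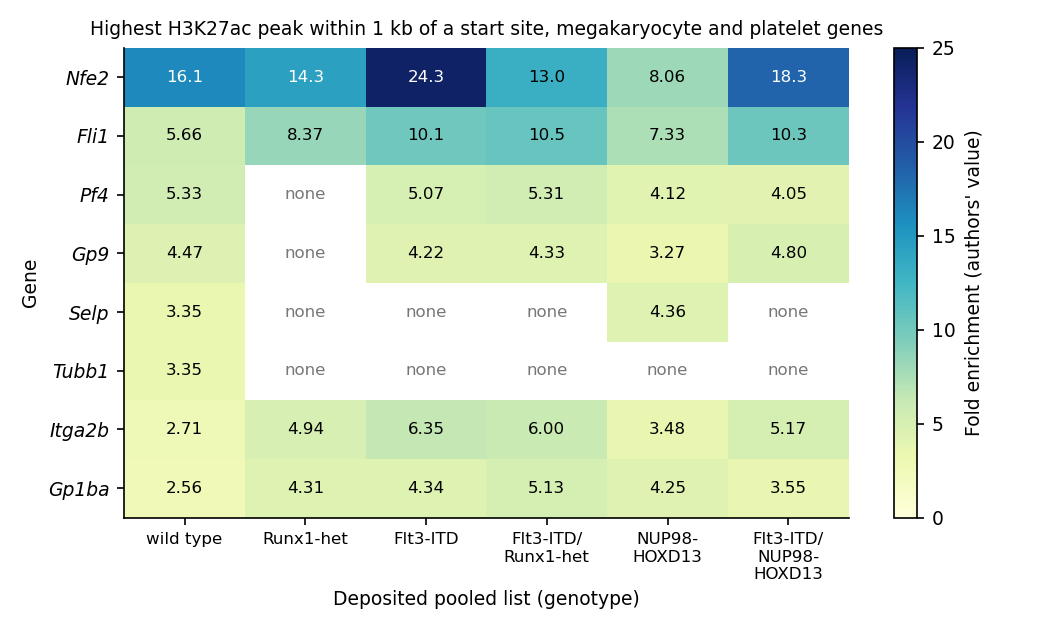
Fold enrichment (colour and printed value, the authors' own) of the highest H3K27ac peak within 1 kb of a start site, for 8 of the 9 megakaryocyte and platelet genes with such a peak in wild type or Runx1-het (rows), in the 6 pooled lists (columns); none means no listed peak. Pf4 and Gp9 have no peak in Runx1-het and one in wild type, and values are to be ranked within a column only.

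Fli1, an ETS factor of megakaryocytes and stem cells, gave the largest share of the megakaryocyte losses, with 2 gained, 19 lost and 16 shared regions. Without Fli1 the list had 14 gained and 31 lost regions, 31.1% gained (19.5 to 45.7), an interval that holds the share of all genes. Its promoter had peaks in both lists (8.37 in Runx1-het and 5.66 in wild type). The strongest lost region was intronic (chr9:32507259-32507474, 6.98 in wild type), lay 34121 bp from the start site and was in all 4 other lists. A Runx1-het peak (chr9:32507475-32507784, 3.78) directly adjoined it, so peaks of both lists stood side by side there. Of the other members, Itgb3, the β3 integrin of platelets, had 1 gain and 5 losses, Gp1ba 1 and 4, and Nfe2, a transcription factor of platelet formation, 0 and 3. Losses were not the rule at every member. Of the 20 genes, 10 had more losses than gains and 5 had more gains, among them Selp (4 and 3), Gp5 (2 and 1) and Thbs1 (2 and 1).

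**Figure D5:**
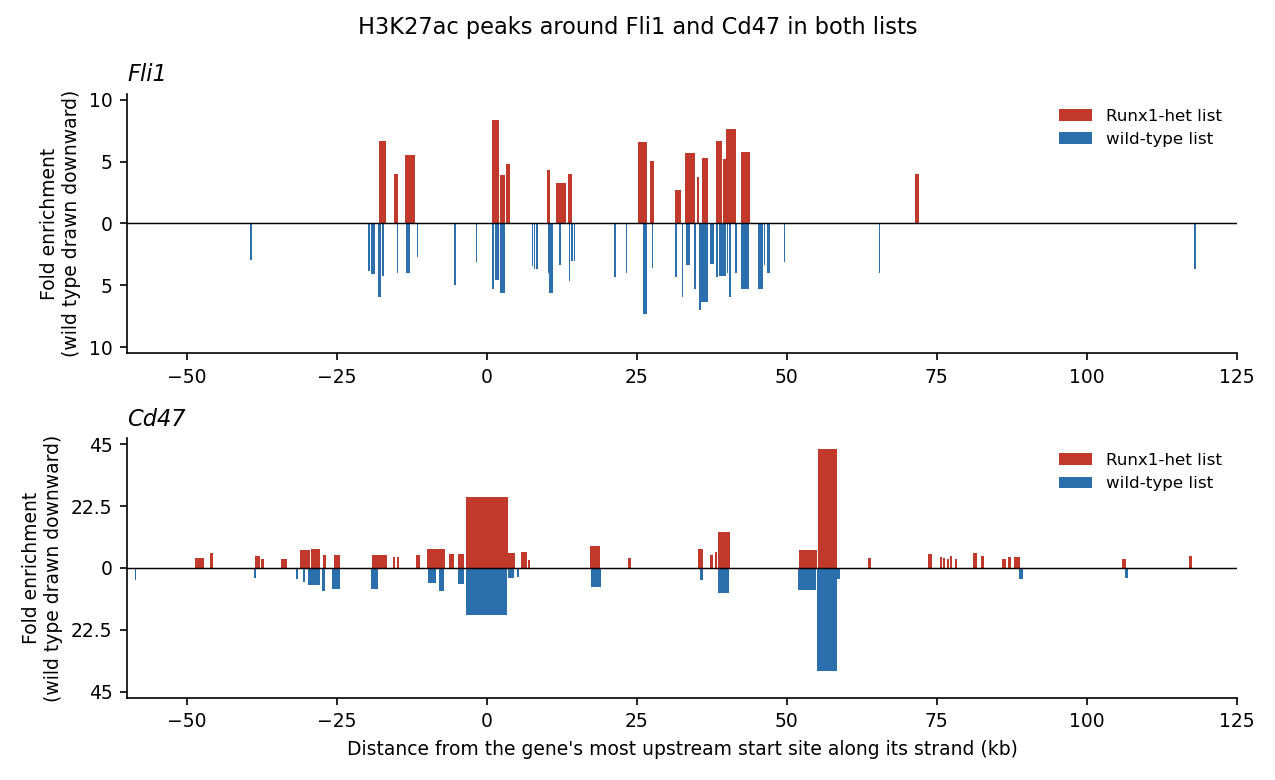
Fold enrichment (y axis; Runx1-het drawn upward, wild type downward) of each H3K27ac peak around Fli1 (top) and Cd47 (bottom), by distance in kb from the most upstream start site along the strand of the gene (x axis); the width of a bar is that of the peak. At Fli1 many narrow wild-type peaks face fewer and wider Runx1-het peaks (19 lost against 2 gained regions), and at Cd47 many small Runx1-het peaks have no wild-type partner (24 gained against 3 lost).

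T and NK cell genes had 5 gained, 22 lost and 18 shared regions, a gained share of 18.5% (8.18 to 36.7). The losses stood at Notch1 (1 gain, 6 losses), the receptor that sets T cell fate, at Gata3 (1 and 4) and Tcf7 (0 and 3), T lineage transcription factors, at Il2rb (0 and 3), a cytokine receptor subunit, and at Klrb1c (0 and 3), which encodes the NK1.1 antigen. The strongest loss at Notch1, an intronic region (chr2:26507580-26507982, 5.97), was in all 4 other lists. Of the defining T cell genes, Cd3e, Cd3g, Cd4 and Cd8a had no region in either list, Cd3d had 1 shared region 3521 bp from its start site (14.6 in Runx1-het and 15.2 in wild type), and Lck, a kinase of T cell receptor signalling, had a promoter peak of 15.5 in both. Promoter peaks stood at 3 of 18 genes in wild type and 1 in Runx1-het, and over all 20696 genes at 8371 and 8364. With lists of equal length the share was 40.0% (19.8 to 64.3) against 59.3% over all genes, an interval that holds it, and the call is also lost without Notch1 (20.0%, 8.07 to 41.6).

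Stem and multipotent progenitor genes had 97 gained, 90 lost and 77 shared regions, a gained share of 51.9% (44.7 to 58.9). Promoter peaks, a check of the labelled cells, stood at 20 of 32 genes in Runx1-het and 23 in wild type, among them Erg (68.6 and 59.3), Meis1 (47.5 and 40.2), Flt3 (31.3 and 23.5) and Kit (13.4 and 7.64). The check was partial, since 9 of the 32 genes had a promoter peak in neither list, among them Procr, Slamf1, Ly6a, Tek, Esam, Fgd5 and Hoxb5. The gains were spread over Mecom (11 gains, 17 losses), Hlf (8 and 9), Erg (8 and 5), Mllt3 (8 and 3), Lmo2 (7 and 7) and Cd34 (7 and 1). Mecom, a transcription factor that stem cells need, thus had more losses than gains, and Cd34, a surface marker of progenitors, the reverse. Of the 7 gained Cd34 regions 0 were in all 4 other lists, and the strongest lay 2554 bp from a start site (chr1:194935863-194936265, 5.98), 193 bp from a wild-type peak (5.33). Gata2 (5.0) and Prdm16 (4.34) were among the 3 of 32 genes with promoter peaks in wild type alone, against 3.49% of all genes. With lists of equal length the share was 66.5% (58.9 to 73.2) against 59.3%, an interval that holds the share of all genes, and among regions of the stronger part of each list it lay on the other side, at 27.1% against 30.5%.

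Adhesion genes had 64 gained, 55 lost and 73 shared regions, a gained share of 53.8% (44.8 to 62.5), and a single gene decided it. Cd47, the signal on blood cells that keeps macrophages from engulfing them, had 24 gains and 3 losses, the most gains of any gene, and without it the list had 40 gains and 52 losses, 43.5% (33.8 to 53.7). Its promoter was strong in both lists (43.4 in Runx1-het and 37.5 in wild type). The strongest gain was an intronic region (chr16:49806120-49807134, 5.89), 285 bp from a wild-type peak (3.14). Itga9, an integrin subunit, went the other way with 4 gains and 13 losses.

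Among targets of RUNX1, Ccnd3, which encodes a D-type cyclin of the G1 phase, held the third strongest gained region of all, an intronic one 2554 bp from a start site (chr17:47507703-47508840, 11.5). It was one of 8 gains against 4 losses, and 7 of those 8 regions were in all 4 other lists. Hmga2, an architectural chromatin protein, had 8 gains and 1 loss, Gfi1, a repressor of stem and myeloid cells, 4 and 6, and Prkcq, a protein kinase C, 6 and 9. Spi1, the master factor of myeloid cells, had 2 gains and 3 losses with promoter folds of 11.1 and 10.4. Csf1r, Cebpa and Gfi1b had no promoter peak in either list.

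The strongest gained region lay at the promoter of Mterf1a, a mitochondrial transcription terminator (chr5:3892671-3893661, 13.1). It was followed by the common promoter of Zfp553 and Sept1 (11.7), Ccnd3, a region near Plxnd1 (11.2), an intergenic region of chromosome 10 with no start site within 50 kb (10.5), and the promoters of Capza2 (10.4), Ssbp4 (10.4) and Ifit3 (10.3). Regions in Tmprss6 (10.2) and near Lyz1 (9.80) closed the 10. All 10 were in all 4 other lists, so each was missing from wild type alone.

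The strongest lost region lay 356 bp from a start site of Gna11, a G protein subunit (chr10:81545546-81546030, 10.6 in wild type and 6.38 to 8.35 in the other 4 lists). Irs1 (9.28), Gfod1 (9.28), Cysltr2 (9.19), Nmur1, Npl, Accsl and Scn10a (8.62 each), an intergenic region of chromosome 11 (8.29) and Ifit3b (8.23) followed. Of these 10, 8 were in all 4 other lists; the exceptions were Gfod1, in 1, and Cysltr2, in 3. Each of the 10 gained and 10 lost regions kept its class with lists of equal length and with a −log10 q of at least 5. A peak of the other list lay within 1000 bp of 4 of the gained regions and of 3 of the lost ones. With peaks up to 1 kb apart merged, 4 of the 10 gained and 7 of the 10 lost regions kept their class. With the union of 6 lists, 6 and 7 kept it.

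Promoter peaks of the highest fold held by 1 list alone need care. The Runx1-het peaks within 1 kb of Gdf9 (37.5), Gm26602 (23.4), Rnf151 (14.6) and Il1b (13.6) belonged to regions that both lists held. They came within 1 kb of a start site where the wild-type peaks did not. Among promoters that lay in a gained region, Gatb (9.79), Pyroxd1 (9.32) and Ctbp2 (9.32) were among those that followed the ones named above, and among lost ones Lpin1 (8.15), Bicd1 (7.97), Herc3 (7.97), Adcy7 (7.97) and Sgpl1 (7.64). These were ranked after their values were seen.

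Interferon genes had 19 gained, 24 lost and 27 shared regions, 44.2% gained (30.4 to 58.9), and promoter peaks at 19 genes in each list. Eif2ak2, the RNA-activated kinase PKR, had 3 gains and 0 losses with a promoter peak in Runx1-het alone (5.42). Ifitm3, a viral entry inhibitor, had 0 gains and 3 losses with one in wild type alone (5.69), as did Mx1 (0 and 2, 5.0). Ifit3 was gained (10.3) while Ifit3b was lost (8.23 in wild type), with a Runx1-het peak of 4.07 within the RefSeq window of Ifit3b. Their windows, printed above, are nearly alike, so reads could be split between them and both calls are uncertain.

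Other lineages had shares whose intervals, with the lists as deposited, hold that of all genes. Monocyte genes had 16 gains and 32 losses (33.3%, 21.7 to 47.5), with 0 and 5 at Irf8, the factor of monocyte and dendritic fate. Granulocyte genes had 11 and 18, erythroid genes 12 and 17, B lymphoid genes 16 and 21, dendritic cell genes 16 and 14, and mast cell, basophil and eosinophil genes 11 and 12. STAT5 target genes had 24 and 21 (53.3%, 39.1 to 67.1). NF-kB genes had 18 and 24, with 0 and 5 at Nfkbia, the NF-kB inhibitor. Without their member of the most changed regions, NF-kB genes had 11 and 22. Counts were 16 and 17 for p53 genes, 3 and 6 for ribosome biogenesis genes, and 30 and 34 for genes mutated in myeloid leukaemia. Of the last, Etv6, an ETS repressor, had 9 and 1. Endothelial and stromal genes had 5 and 11. All 13 ubiquitous genes on the autosomes had promoter peaks in both lists, and 1 of 17 genes not expressed in blood did.

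Genes with many regions topped both directions. Foxp1, a forkhead repressor, had 21 gains and 33 losses, Sgms1, a sphingomyelin synthase, 17 and 20, Map7, a microtubule-binding protein, 11 and 18, Mbnl1, a splicing regulator, 18 and 8, and Fam107b 17 and 9. One-sided genes, with at least 8 regions of 1 class and at most 1 of the other, numbered 6 for gains (Etv6, Mctp1, Ptbp3, Tmem236, Elf1 and Hmga2) and 12 for losses, led by Slc45a4 (1 and 13) and by Rgs3, Zfp710 and 2900026A02Rik (1 and 11 each). This limit was chosen after the values were seen, and the count was not repeated with lists of equal length. Over all 20696 genes, 4947 had a gain and 6229 a loss, so the excess of losses is not read as a trait of these genes. Flt3 had 2 gains and 5 losses, Vav1 2 and 1, and Nup98 1 and 1.

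RUNX motifs had overlapping frequencies in promoter windows held by either list alone. The windows were classed by their own overlap with a peak, not by gained or lost region. A window of Mpo, for example, overlapped a Runx1-het peak alone, while the Mpo promoter, up to 1 kb from a start site, had peaks in both lists. Of the RefSeq windows, TGTGGT on either strand was in 14.4% (12.6 to 16.4) of 1346 that overlapped a Runx1-het peak alone, in 15.7% (13.1 to 18.7) of 637 that overlapped a wild-type peak alone, in 12.4% (11.6 to 13.2) of 7055 in both, in 18.2% of 22358 in neither, and in 16.7% of all 31396. The longer TGTGGTT, each match of which also holds TGTGGT, was in 4.38%, 5.81%, 3.91% and 5.81% in that order. The ETS motif was in 18.0% (16.0 to 20.1) of Runx1-het windows, 14.9% (12.4 to 17.9) of wild-type windows, 22.8% of windows in both and 9.0% of all. GATA motifs were in 7.21% and 7.22%, and interferon-response motifs in 2.90% (2.13 to 3.94) and 5.34% (3.84 to 7.37), against 11.2% and 3.46% of all. The median GC content of the windows was 60.7% (Runx1-het alone), 58.3% (wild type alone) and 61.3% (both), and its part in these shares was not tested. A motif match is a run of letters and not a measured binding site.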

How the data were processed

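The members, gene lists and tests were chosen with earlier results of these data known. Per the submitters' processing notes, the tools were BWA and MACS2 and the build mm10 (GRCm38), with versions and threshold not given in the sources used here. For each genotype and mark the authors deposited 1 narrowPeak list (12 in all), pooled over 3 or 4 samples; 8 lists were used (all 6 for H3K27ac, and 2 for H3K4me1). The labels state no read depth, so the depth behind each value and its precision are unknown. Each deposited peak has a score (at most 1000), a ratio, which is the fold enrichment at the summit, −log10 p and −log10 q values, and a summit position (other). Fold enrichment ranked peaks within a list and was never subtracted between lists; −log10 p ordered peaks where lists were shortened and −log10 q set a stricter threshold.

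Peaks of the Runx1-het and wild-type H3K27ac lists on the 19 autosomes were merged at 1 bp of overlap with Python 3.11.15 (pandas 2.3.3, numpy 2.4.6). Each region was given the gene of its nearest start site, up to 50 kb away, and a promoter reached 1 kb to either side of a start site (GENCODE mouse release 21, basic set, 21827 protein-coding genes). Groups came from the sample labels. Shares carry 95% Wilson intervals. With 1 pooled list per group no test between groups was made. The 21 gene lists held 403 entries, 367 distinct symbols, of which 6 were not found on the autosomes of the annotation. The procedure was tested on a copy of the wild-type list with peaks removed and added. That copy does not imitate the differences in width and threshold between the lists.

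Named genes are those of the 10 strongest gained and lost regions with a start site within 50 kb, up to 4 members per list with the most changed regions, the 5 genes with the most gained and the 5 with the most lost regions, the 10 promoters of highest fold held by 1 list alone, and Runx1, Cbfb, Vav1, Flt3 and Nup98; others were named after their values were seen. Alternatives were equal-length lists, −log10 q of at least 5, gained or lost regions from the stronger part of each list alone, merging within 1 kb, coverage of at least 0.5, the union of 6 lists, all chromosomes, promoters within 2 kb and start sites up to 100 kb away; leaving out 1 member of a gene list was added after the data were seen. RUNX motifs at peak summits were not analysed here. A few genes that these rules select stay in the counts but are not reported here by name, nor drawn.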

Additional observations from a re-analysis of the deposited data

Results flagged for a closer look

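The Runx1-het H3K27ac list held 5 peaks on the Y chromosome, with a fold enrichment of up to 28.4, while the wild-type list held 0. They stand outside the autosomal comparison and were noticed because the wild-type control had none. The Flt3-ITD/Runx1-het list also held 5, of up to 22.4, and the Flt3-ITD list 1, of 2.00. In H3K4me1 the Runx1-het list held 6 Y peaks, of up to 5.21, and the wild-type list 3, of up to 3.65. The sources used here do not give the sex of the animals, and its part in the autosomal gains and losses was not tested.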

How the results depend on the processing

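No paired analysis was possible because each group was deposited as 1 pooled list, and for the same reason no replicate could be left out. The planned RUNX motif shares at peak summits were not run. The balance of gains and losses turned over: 40.3% of the changed regions were gained as deposited, against 58.6% with equal-length lists, 80.1% with a −log10 q of at least 5, 28.7% with the stronger part of each list, 39.0% with merging within 1 kb, 46.4% with coverage of at least 0.5 and 39.7% with the union of 6 lists. Gained regions numbered 1984 (stronger part) and 7628 (merging within 1 kb) in place of 12427. Lost regions numbered 9757 (equal length), 2136 (−log10 q), 4924 (stronger part) and 11931 (merging) in place of 18438, and shared regions 11703 (−log10 q) in place of 18016.

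Shares are given here in the order equal length, −log10 q, stronger part, merging, coverage and union, leaving out those that stayed within the interval of the value as deposited. Promoters held 11.8%, 21.3%, 20.9%, 8.51%, 15.1% and 8.0% of gained regions (15.7% with promoters of 2 kb) and 9.63%, 13.9%, 11.1%, 6.26% and, for the union, 6.27% of lost regions (13.1% with 2 kb). Runx1-het H3K4me1 stood at 36.5%, 49.8%, 41.5% and 24.9% of lost regions, and wild-type H3K4me1 at 41.2%, 52.0%, 51.7%, 33.9% and 44.1% of gained regions. On the Flt3-ITD background 9.08%, 7.07%, 8.85% (merging), 10.0% (coverage) and 9.31% (union) of gained regions were gained again, and 14%, 22.1%, 14.2%, 7.64% and 7.57% (union) of lost regions were lost again. Under −log10 q, 12.5% of all regions were lost in that pair and 4.11% gained. The cause of these shifts was not tested.

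Of 189 values for gene lists under the alternatives, 136 stayed within the interval of the value as deposited. In 42, from 17 of the 21 lists, the value lay on the other side of the share of all genes; among the 4 lists whose interval left that share out as deposited this happened once, for stem and multipotent progenitor genes, at 27.1% against 30.5%. Megakaryocyte and platelet genes stayed below the share of all genes under every alternative run, with 5.88 to 44.4% gained, and their interval held it without Fli1. STAT5 target genes, whose interval held the share of all genes as deposited, stood above it with equal-length lists (75.7%, 59.9 to 86.6, against 59.3%), −log10 q (96.4% against 80.8%), the stronger part (75% against 30.5%), merging (60.9% against 40.3%) and coverage (62.7% against 48.1%). With −log10 q the intervals of monocyte genes (100% gained) and B lymphoid genes (56.2%) left out 80.8% too. Where a list has no peak, depth cannot be told apart from absence.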
